A study of Mus musculus with 14 samples.

Results

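The 9 members of the SLAM family of receptors and Cd160 were taken from the gene expression table of 14 mouse mammary tumors by their symbols, which gave 10 genes of the 56414 listed, with 1 row per gene. All tumors grew in C57Bl/6 mice. M/D-driven tumors arose in female mice that were 6 to 9 weeks old when a pellet releasing 50 mg of medroxyprogesterone acetate (MPA, a progestin) over 90 days was implanted, and that then received 6 gavages of 200 µL of 7,12-dimethylbenz[a]anthracene (DMBA, a carcinogen) at 5 mg per mL. AT3 tumors grew from 1000000 cells of the AT3 mammary carcinoma line injected under the skin, so that these tumors share 1 cell line, and neither MPA nor DMBA is named for their hosts. Once a tumor had reached 0.25 cm2, mice were left untreated (4 M/D-driven and 3 AT3 tumors) or received nicotinamide (NAM, an amide form of vitamin B3) at 0.5% in drinking water for 10 days (4 M/D-driven and 3 AT3 tumors). The comparisons ask whether these receptors differed with NAM in each model, whether the effect of NAM differed between models, and how the untreated models differed. Nothing in the labels states that each tumor came from a separate mouse, so p values measure the spread between these tumors.

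SLAM receptors are immunoglobulin-like proteins at the surface of leukocytes. Most of them bind a copy of themselves on the neighboring cell, whereas CD244 binds CD48. Their cytoplasmic tails recruit the small adaptors SAP (encoded by Sh2d1a) and EAT-2 (Sh2d1b1), which link several of them to kinases of the SRC family, and without which inhibitory phosphatases can be engaged. CD48 has no cytoplasmic tail and is held in the membrane by a lipid anchor, and SLAMF8 and SLAMF9 lack the tyrosine motifs of the other tails. CD160 is not a SLAM receptor. It is found on NK cells and on some T cells, and binds the herpesvirus entry mediator encoded by Tnfrsf14.

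In the coordinates of mm10, 7 members (Cd244, Ly9, Slamf7, Cd48, Slamf1, Cd84 and Slamf6) lie within 389767 bases of chromosome 1 (171559192 to 171948958). Slamf9 and Slamf8 follow 526401 bases further on (172475360 to 172590569), and Cd160 is on chromosome 3 (96798763 to 96829351). The interval of Ly9 lies entirely inside that of Cd244, over 18798 shared bases, and that of Slamf6 shares 1843 bases with the gene model Gm37065. Whether reads were assigned by strand is not given in the sources used here, so reads of these overlapping genes may have been split between them.

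The promoters of 4 members are shown, chosen by how the members varied across tumors. Cd48 and Cd84 had the highest Pearson's r of any pair of members across 13 tumors (0.96, log2 counts centered on group means). Slamf6 and Slamf9 moved in opposite directions in 1 tumor described next. The sequences are the 250 bases before the RefSeq start of each gene (GRCm38.p6, plus strand, 5′ to 3′) at chr1:171681742-171681991 for Cd48, chr1:171839447-171839696 for Cd84, chr1:171917212-171917461 for Slamf6 and chr1:172475110-172475359 for Slamf9. Capitals mark TGTGGT, the core letters of RUNX sites, and GAGGAA, letters found in many sites of PU.1, searched on both strands.
Cd48: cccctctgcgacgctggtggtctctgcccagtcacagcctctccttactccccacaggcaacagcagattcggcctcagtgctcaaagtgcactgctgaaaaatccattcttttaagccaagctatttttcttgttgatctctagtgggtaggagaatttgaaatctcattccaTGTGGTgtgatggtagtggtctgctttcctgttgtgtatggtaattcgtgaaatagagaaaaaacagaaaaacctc
Cd84: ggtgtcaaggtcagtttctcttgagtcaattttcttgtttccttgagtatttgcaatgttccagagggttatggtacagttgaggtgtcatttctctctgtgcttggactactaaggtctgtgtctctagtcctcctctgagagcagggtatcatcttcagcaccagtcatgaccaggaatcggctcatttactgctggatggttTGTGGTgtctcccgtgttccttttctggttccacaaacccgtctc
Slamf6: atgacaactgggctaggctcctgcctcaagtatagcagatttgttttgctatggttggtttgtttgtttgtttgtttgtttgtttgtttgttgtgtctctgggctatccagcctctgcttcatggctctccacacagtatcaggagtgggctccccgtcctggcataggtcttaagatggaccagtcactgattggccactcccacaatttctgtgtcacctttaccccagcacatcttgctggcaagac
Slamf9: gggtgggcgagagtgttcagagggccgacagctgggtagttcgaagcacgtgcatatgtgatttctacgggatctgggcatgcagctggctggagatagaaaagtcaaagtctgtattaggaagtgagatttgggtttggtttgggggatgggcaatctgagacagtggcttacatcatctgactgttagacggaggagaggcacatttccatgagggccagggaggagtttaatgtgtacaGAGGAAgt
The windows of Cd48 and Cd84 each hold 1 TGTGGT, as do 14.2% of 27025 promoter windows of the same length. That of Slamf9 holds 1 GAGGAA, as do 23.1% of them, and that of Slamf6 holds neither. These matches describe the letters only.

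NAM-treated M/D tumor 1 stood apart from the other 7 M/D-driven tumors, and it is the only M/D-driven tumor labelled with experiment 2, since the other 7 belong to experiment 1 and the AT3 tumors to experiment 3. Of 7 markers of precursor B cells and thymocytes, 5 were above the other 7 tumors, among them Vpreb1, with 67823 normalized counts against at most 55.5, and Rag2, with 9006 against 0 in all other 13 tumors. Rag1 was below them (475 against 623 to 1337) and Ptcra, a thymocyte gene, was at 0. The summed count of 7 B cell markers was 190870 against 101 to 1908, with 6 of the 7 markers above the other 7 tumors. The summed count of 9 epithelial markers was 8104 against 258644 to 1018110, with 8 of the 9 below the other 7 tumors, which goes against the label of a mammary tumor as its main content. Of 8 T cell markers, 6 were below the other 7 tumors, with Cd3e at 87.4 against 172 to 777, whereas Cd4 was above them (1885 against 229 to 1178) and Cd5 lay within their range. The library labelled NAM-treated M/D tumor 1 was kept as labelled, and limma differences of the members with NAM are given with and without it. Values with NAM for pathway genes in M/D-driven tumors, and DESeq2 calls, are given with it only. Recovered reads ranged from 40936868 to 84178009 per tumor.

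The members moved in both directions in this library. Slamf6, a receptor of T, B and NK cells that binds itself, had 9270.1 normalized counts there against 188 to 385 in the other 7 M/D-driven tumors, 24.1-fold over the highest of them. Cd244 (3.77-fold), Cd48 (3.74-fold), Ly9 (3.28-fold), Slamf1 (3.1-fold), Slamf7 (2.01-fold) and Cd84 (1.27-fold) were also above the highest of the other 7. Slamf9, which is expressed in macrophages and dendritic cells, was 2.94-fold below the lowest of the other 7, and Slamf8, a receptor of macrophages, 1.45-fold below. Over all genes tested, 28.1% were above and 26.6% below all of the other 7 tumors. Gm37065, which overlaps the start of Slamf6, was at 721.5 counts in this library and at no more than 4.07 in the other 13.

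**Figure D1:**
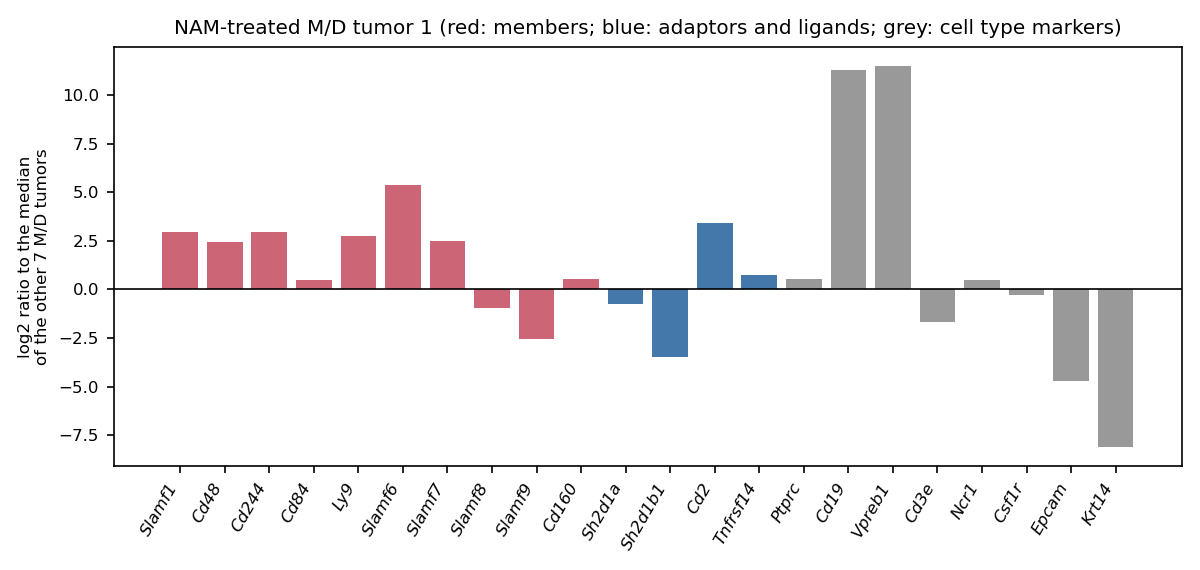
Log2 ratio of the normalized count in NAM-treated M/D tumor 1 to the median of the other 7 M/D-driven tumors, for the 10 members (red), adaptors and ligands (blue) and cell type markers (grey). Slamf6 was 5.38 above that median and Slamf9 2.56 below it (-2.56), beside 11.51 for Vpreb1 and -8.10 for Krt14.

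In M/D-driven tumors, no member passed the thresholds with NAM (a 1.5-fold change with an unadjusted p no higher than 0.05 in limma), where 6.22% of the 21700 genes tested did. At an unadjusted p of at most 0.05 the count was likewise 0 of 10. The median log2 difference of the 10 members was 0.91 over the 4 against 4 tumors and 0.22 without NAM-treated M/D tumor 1, beside 0.01 and 0.00 for all genes. None of the 10 separated the groups without overlap, as 4.43% of genes did. Without that library the count was again 0 of 10, where 5.17% of 21489 genes passed, and this comparison stays within experiment 1.

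Cd48, the ligand of CD244, had 1130.1, 793, 843 and 939.9 normalized counts in untreated M/D tumors 1 to 4, and 5232, 1364, 949 and 1399.9 in NAM-treated tumors 1 to 4. The groups overlapped, since untreated tumor 1 was above NAM-treated tumor 3. The log2 difference was 0.93 ± 0.49 (SE; adjusted p = 0.74, limma), and 0.41 ± 0.22 without NAM-treated tumor 1 (adjusted p = 0.81). Cd244, the receptor known as 2B4 on NK cells and some T cells, had 175, 224, 268 and 141 counts in untreated tumors and 1731, 252, 200.7 and 459.7 in NAM-treated tumors. NAM-treated tumors 2 and 3 lay inside the untreated range, and the difference of 1.19 ± 0.65 on the log2 scale (adjusted p = 0.74, limma) was 0.54 ± 0.38 without NAM-treated tumor 1 (adjusted p = 0.84).

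Slamf6 had 385, 228, 188 and 189.9 counts in untreated tumors and 9270.1, 223, 209.9 and 375 in NAM-treated tumors. Its log2 difference of 1.42 ± 1.14 (adjusted p = 0.80, limma) became 0.13 ± 0.36 without NAM-treated tumor 1 (adjusted p = 0.95). Thus 3 of 4 NAM-treated tumors lay within the untreated range. Ly9, a receptor of lymphocytes that binds itself, had 1376, 801, 766 and 712 counts in untreated tumors and 5478, 1007, 751 and 1671 in NAM-treated tumors. Slamf7, found on NK cells, plasma cells and activated lymphocytes, had 585, 728, 532 and 451 counts untreated and 3155, 544, 566 and 1566 with NAM. For both, NAM-treated tumors 1 and 4 were above all untreated tumors and the other two were not. Their log2 differences were 0.88 ± 0.59 and 0.97 ± 0.56, and 0.30 ± 0.35 and 0.47 ± 0.40 without NAM-treated tumor 1.

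Cd84, which is found on many leukocytes and on platelets, varied least, from 1047 to 1431 counts untreated and from 1023 to 1931 with NAM. Its log2 difference was 0.20 ± 0.24 with all tumors and 0.05 ± 0.21 without NAM-treated tumor 1. Slamf1, the founding receptor of the family, was scarce, with 38.4, 8.69, 26.3 and 30.6 counts untreated and 206, 12.2, 13.8 and 66.6 with NAM. Its log2 difference of 0.76 ± 0.96 turned to -0.02 ± 0.78 without NAM-treated tumor 1.

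Slamf8 had 1099, 516, 565 and 528 counts in untreated tumors and 291, 423, 740.1 and 1127 in NAM-treated tumors, so that the NAM-treated range enclosed the untreated one at both ends. Slamf9 had 1101, 1718, 1531 and 723 counts untreated and 246, 1456, 737 and 1727 with NAM. The log2 differences of Slamf8 (-0.18 ± 0.46) and Slamf9 (-0.55 ± 0.61) changed sign without NAM-treated tumor 1, to 0.14 ± 0.41 and 0.03 ± 0.40. Cd160 had 48.8, 47.8, 36.0 and 6.44 counts untreated and 64.5, 21.9, 45.1 and 255 with NAM. Only NAM-treated tumors 1 and 4 were above the untreated range of Cd160. Its log2 difference of 1.18 was the same with and without NAM-treated tumor 1 (SE 0.89 and 1.01, adjusted p = 0.79 and 0.86, limma).

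**Figure D2:**
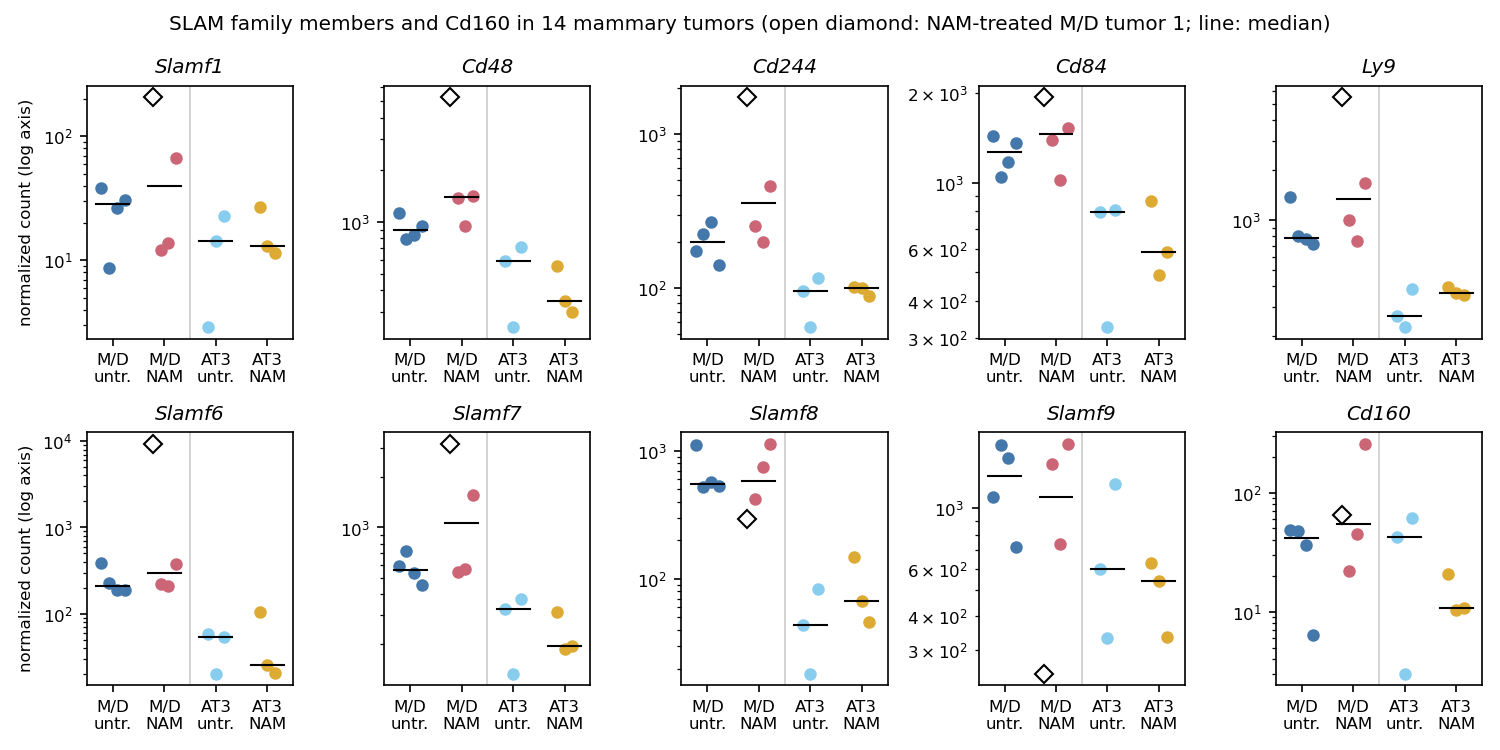
Normalized counts (log axes) of the 10 members in each tumor, with the median of each group as a line and NAM-treated M/D tumor 1 as an open diamond; the models were normalized apart, so levels are to be read within a model. The diamond is highest of the M/D-driven tumors for 7 members and lowest for Slamf8 and Slamf9.

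Tests on the recovered reads gave other counts in M/D-driven tumors. edgeR called Cd48 (log2 difference 1.23, adjusted p = 0.59), Cd244 (1.67, adjusted p = 0.59) and Slamf6 (3.30, adjusted p = 0.59) at the same thresholds, where 7.54% of genes passed. DESeq2 called Cd48, Cd244, Ly9 and Slamf7 with adjusted p of 0.29 to 0.43, where 9.64% passed, and gave no p for Slamf6. When edgeR was run without NAM-treated tumor 1, it called 0 of 10, where 922 of 21489 genes passed as higher and 490 as lower. DESeq2 was not run without that tumor. NK cell markers were also counted: of 7, Klrb1c and Klrd1 passed the limma thresholds with NAM (log2 differences 1.97 and 1.18, adjusted p = 0.73 for both). Without NAM-treated tumor 1 these were 1.27 and 0.97, and Klrb1c alone of the pair passed. The summed count of the 7 NK markers was 433 to 1518 in untreated and 880.5 to 2805 in NAM-treated M/D-driven tumors, and the T cell sum was highest (9619) in NAM-treated tumor 4, which had the most Cd160, Slamf8 and Slamf9. The part of these cells in the levels of the members was not tested. In bulk tumors, fewer cells of a type and less RNA per cell cannot be told apart.

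In AT3 tumors, 0 of 10 members passed the thresholds, where 23.1% of 19281 genes did, and 0 of 10 had an unadjusted p of at most 0.05. The counts by edgeR and DESeq2 were also 0 of 10, where 24.2% and 26.2% of genes passed. None of the 10 separated the groups without overlap, as 22.6% of genes did. The median log2 difference of the members was 0.01, beside -0.05 for all genes. Untreated tumor 2 was the lowest of its group for 9 of the 10 members, untreated tumor 3 the highest for 9, and NAM-treated tumor 1 the highest of its group for all 10. The T cell sum followed the same order, with 662, 317 and 1882 in untreated tumors 1 to 3 and 1528, 727 and 449 in NAM-treated tumors 1 to 3.

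Cd48 had 594, 246 and 713 counts in untreated AT3 tumors and 558, 346 and 301 in NAM-treated tumors, a log2 difference of -0.28 ± 0.42 (adjusted p = 0.69, limma). Without untreated tumor 2 it was -0.75 and passed the unadjusted thresholds, and Cd160 did so too (-1.86). These calls stand beside 3455 genes that passed as higher and 3310 as lower, of 18933 tested without that tumor. With the dependence of each tumor on transcript length and GC content removed, the difference of Cd48 turned to 0.56 and was not called. Cd160 had 42.0, 3.05 and 61.0 counts untreated and 20.7, 10.3 and 10.7 with NAM, which came from as few as 3 reads in untreated tumor 2. Its difference over all 6 tumors was -0.63 ± 0.98. The groups of both genes overlapped, as untreated tumor 2 was the lowest tumor of all 6.

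Slamf8 had the largest positive difference in AT3 tumors, with 43.5, 18.3 and 83.8 counts untreated and 148, 67.7 and 46.3 with NAM (0.91 ± 0.62, adjusted p = 0.37, limma). Differences with NAM in AT3 tumors rose with transcript length (Spearman's rho 0.60 across 15579 genes, which are not independent replicates). When the dependence of each tumor on length and GC content had been removed, Slamf8 passed the unadjusted thresholds and was the only member to do so (log2 difference 1.32). This 1 of 10 stands beside 1513 genes that passed as higher and 1074 as lower, of 15579 tested. Macrophage markers were split in the main fit, where length and GC content were not removed. Of 8, Adgre1, Csf1r, Mertk and Mrc1 passed as higher with NAM and none as lower, where 2358 of 19281 genes passed as higher. Cd68 (-0.23), C1qa (-0.27), C1qb (-0.27) and C1qc (-0.09) had negative differences and were not called. The summed count of the 8 markers overlapped between groups, with 35684 to 61053 untreated and 38790.3 to 57041 with NAM.

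Ly9 had 264, 226 and 382 counts untreated and 397, 365 and 353 with NAM (0.39 ± 0.27). Cd244 had 95.6, 55.8 and 116 counts untreated and 102, 101 and 89.2 with NAM (0.19 ± 0.36). The NAM-treated range of Cd244 lay inside the untreated one. Cd84 (0.08 ± 0.39), Slamf6 (-0.06 ± 0.69), Slamf7 (-0.17 ± 0.42), Slamf9 (-0.37 ± 0.46) and Slamf1 (0.60 ± 0.79) had differences below their standard errors and overlapping groups, and Slamf1 was at 2.90 to 26.7 counts in these 6 tumors.

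**Figure D3:**
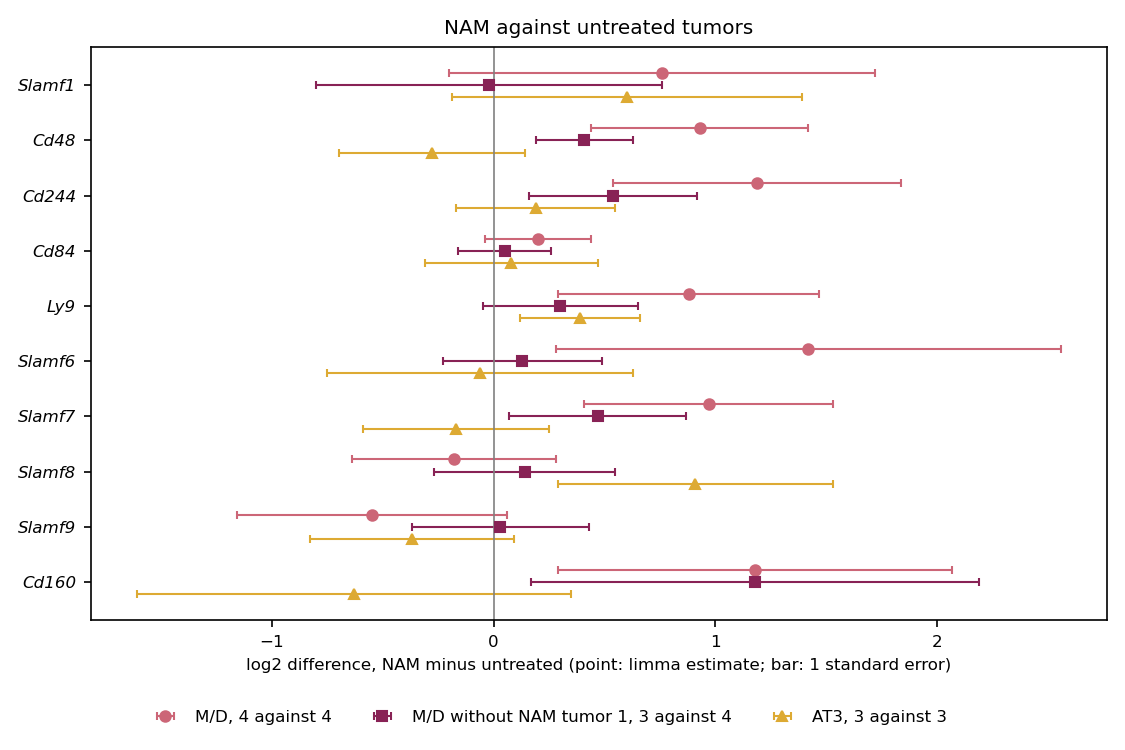
Log2 difference between NAM-treated and untreated tumors for each member (limma estimate, bars of 1 standard error) in M/D-driven tumors, in M/D-driven tumors without NAM-treated tumor 1, and in AT3 tumors. Slamf6 moves from 1.42 to 0.13 when that tumor is left out, and the estimates of Cd160 are 1.18 in M/D-driven and -0.63 in AT3 tumors.

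The effect of NAM did not differ between models past the thresholds for any member in limma (0 of 10, where 14.9% of 22710 genes did), and no unadjusted p was at or below 0.05. The estimates were largest for Cd160 (1.82 ± 1.44, adjusted p = 0.55), Slamf6 (1.49 ± 1.53) and Cd48 (1.21 ± 0.72), all as M/D-driven minus AT3, and lowest for Slamf8 (-1.09 ± 0.83). Without NAM-treated M/D tumor 1 they were 1.81, 0.20, 0.69 and -0.77. In that fit 0 of 10 passed, where 1649 of 22538 genes passed as higher and 2152 as lower. With all tumors, other tests gave the following counts. edgeR called 0 of 10, where 16.0% of genes passed, and DESeq2 called Cd160, Cd48 and Slamf7, where 18.6% passed. The standard errors leave room for differences in either direction for most members.

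Untreated tumors of both models were compared on counts of recovered reads scaled to library size with joint TMM factors (CPM), as the deposited values had been scaled within each model. Slamf8, Slamf6 and Ly9 were higher in M/D-driven tumors, with unadjusted and adjusted p below the threshold. Slamf8 was at 17.3, 7.98, 8.80 and 8.05 CPM in untreated M/D-driven tumors and at 0.813, 0.337 and 1.66 in untreated AT3 tumors. Every M/D-driven tumor was above every AT3 tumor, and the log2 difference was 2.97 ± 0.41 (adjusted p = 0.00087, limma). Slamf6 was at 6.07, 3.53, 2.93 and 2.90 against 1.08, 0.374 and 1.08 CPM (1.69 ± 0.36, adjusted p = 0.0054, limma). Ly9 was at 21.7, 12.4, 11.9 and 10.9 against 4.93, 4.17 and 7.57 CPM (1.27 ± 0.31, adjusted p = 0.011, limma). Neither of these genes overlapped between the models either.

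The 3 of 10 stand beside 30.7% of 20886 genes that were higher in M/D-driven tumors at the same thresholds, and beside 28.8% at an adjusted p of at most 0.05. The count depended on the setting. Without untreated AT3 tumor 3 it was 8 of 10, where 27.3% of genes were higher, and it was 7 of 10 with all 14 tumors in the fit (25.7%), with CPM of the total (35.0%) and on the deposited values (39.2%). edgeR and DESeq2 called the same 3 members, where 31.7% and 31.3% of genes were higher. In all, 4 members had no overlap between models, with Cd84 as the fourth, where 30.9% of genes had none in this direction. Cd84 was at 16.2 to 22.5 against 6.02 to 16.1 CPM (0.74 ± 0.34, adjusted p = 0.095, limma). Cd244 was at 2.15 to 4.18 against 1.03 to 2.29 CPM (0.73 ± 0.32, adjusted p = 0.088, limma).

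Cd48 (0.64 ± 0.36), Slamf7 (0.79 ± 0.37), Slamf9 (0.62 ± 0.47) and Slamf1 (0.26 ± 0.26) were not called, with positive differences, and Cd160 was at 0.542 ± 0.310 in M/D-driven against 0.684 ± 0.584 CPM in AT3 tumors (SD, n = 4 and 3), a log2 difference of -0.10 ± 0.43. The model and the experiment cannot be told apart here. Markers of several cell types were also higher in M/D-driven tumors. Ptprc, the pan-leukocyte gene that encodes CD45, was 2.32 higher on the log2 scale, Csf1r of macrophages 2.84 and Cd3e of T cells 1.82. Of 8 T cell markers 6 were higher, of 8 macrophage markers 7, and of 7 NK cell markers 0. The macrophage markers ranged from -0.46 to 2.84, with a median of 1.43. Medians were 0.17 for NK cell, 0.28 for B cell, 3.07 for epithelial, 1.59 for endothelial and 1.33 for fibroblast markers. Cell content was not tested. After scaling each tumor to its Ptprc, 8 members were called lower in M/D-driven tumors, where 81.0% of genes were, and Slamf6 turned to -0.63, whereas Slamf8 was at 0.66 and not called. That scaling moved the median log2 difference of all genes from 0.13 to -2.18. Scaled to the mean of Ptprc, Laptm5 and Coro1a, Slamf8 was higher and called, and the other 8 called members were lower, where 78.4% of genes were. Differences between the models rose with transcript length too (Spearman's rho 0.36 across 16838 genes), and with that trend removed 7 members were higher, where 33.3% of genes were.

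**Figure D4:**
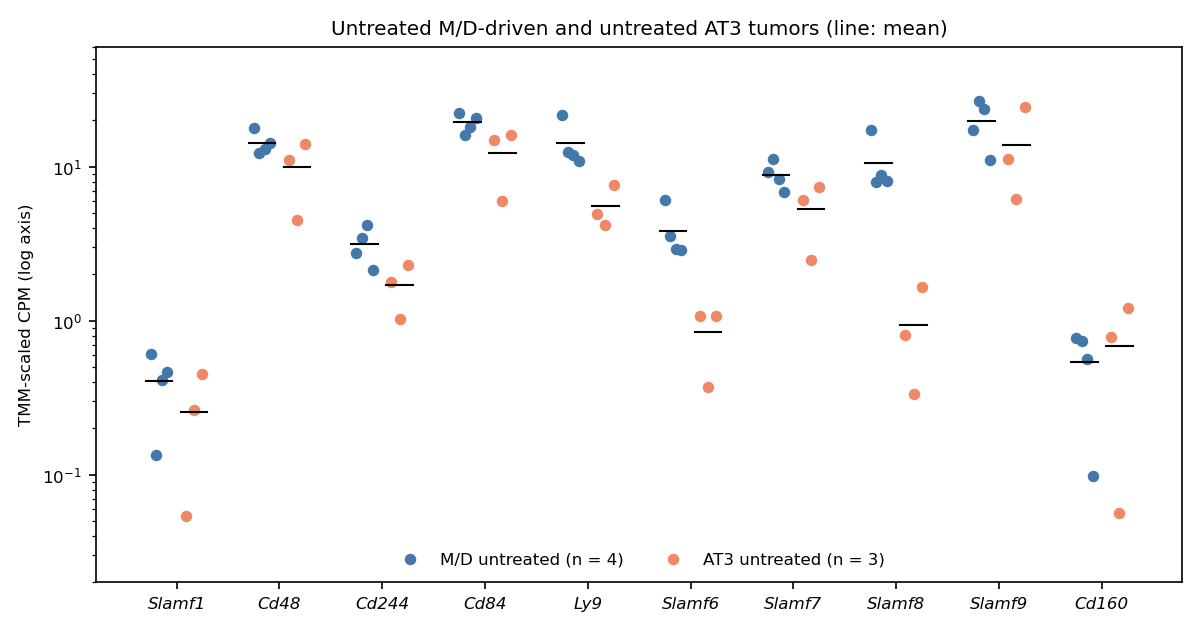
TMM-scaled CPM (log axis) of each member in the 4 untreated M/D-driven and the 3 untreated AT3 tumors, with the mean of each group as a line. Slamf8, Slamf6, Ly9 and, narrowly, Cd84 have no overlap between the models, and Slamf8 shows the widest gap (10.5 against 0.937 CPM on average).

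The order of the members was compared per length, as CPM per kilobase of the longest GENCODE transcript, although the authors counted on constitutive regions only. In untreated M/D-driven tumors, Slamf9 was at 16.3 ± 5.91 (SD, n = 4) and Cd48 at 13.1 ± 2.08, and these ranges overlapped. Slamf8 (6.87 ± 2.88), Ly9 (6.19 ± 2.12) and Cd84 (6.14 ± 0.81) followed and could not be ranked by their spread. Slamf7 came next at 2.44 ± 0.53, then Cd244 at 0.905 ± 0.256 and Slamf6 at 0.729 ± 0.278, which overlapped. Cd160 (0.227 ± 0.130) and Slamf1 (0.099 ± 0.048) came last. In untreated AT3 tumors, Slamf9 (11.0 ± 7.16, n = 3) and Cd48 (8.66 ± 4.10) again led, and Slamf8 was at 0.582 ± 0.404 and ranked sixth, behind Cd84, Ly9 and Slamf7. By their means, NAM-treated AT3 tumors had the same first 7 members in the same order as untreated AT3 tumors. Neighbors in this order overlapped in range in untreated AT3 tumors, so their ranks are those of means only. With NAM, Slamf9 (5.41 to 9.82) and Cd48 (5.35 to 9.61) overlapped too.

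Other genes of the pathway were counted as 3 adaptors, 13 kinases and phosphatases, and 4 ligands and partners outside the family, of which 19 of 20 were tested. With NAM, 0 of 19 passed the thresholds in M/D-driven tumors in limma, where 6.22% of all genes did. At an unadjusted p of 0.05 alone the count was also 0. edgeR called 0, where 7.54% of genes passed, and DESeq2 2 (Cd2 and Inpp5d), where 9.64% passed. These fits include NAM-treated tumor 1. There Cd2 had 3554 counts against at most 825 in the other 7 M/D-driven tumors, and Inpp5d 28612.5 against at most 4794. In AT3 tumors 3 passed as higher and none as lower: Ptpn11, which encodes the phosphatase SHP-2 (1.38 ± 0.38, adjusted p = 0.17, limma), Inpp5d, which encodes the lipid phosphatase SHIP1 (0.99 ± 0.31, adjusted p = 0.17), and Lyn, a kinase of the SRC family (0.59 ± 0.22, adjusted p = 0.17). These are 3 of 19, beside the 23.1% of all genes given above. Ptpn11 was at 1087, 1463 and 1078 counts in untreated and at 1603, 3954 and 4743 in NAM-treated AT3 tumors, and all NAM-treated tumors were above all untreated ones.

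Sh2d1a, which encodes SAP, was low in both models, with a log2 difference of 0.39 ± 0.55 in M/D-driven and -0.86 ± 1.30 in AT3 tumors. Cd2, a relative of the SLAM receptors whose mouse product binds CD48, was at 768, 289, 329 and 289.7 counts in untreated M/D-driven tumors and at 3554, 515, 292 and 825 in NAM-treated tumors (1.09 ± 0.73, adjusted p = 0.78, limma). Its highest tumor was NAM-treated tumor 1, as for Cd48. Tnfrsf14, the partner of CD160, was at 616, 381, 428 and 261 counts untreated and at 712, 197, 492 and 1235 with NAM (0.43 ± 0.55), and its highest tumor was NAM-treated tumor 4, as for Cd160. Between untreated models, 15 of 19 pathway genes were higher in M/D-driven tumors and none lower, beside the 30.7% of all genes that were higher. Scaled to Ptprc, none was called higher and 8 were called lower, and scaled to 3 leukocyte genes none was higher and 9 were lower, beside 81.0% and 78.4% of all genes that were lower.

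Sh2d1b1, which encodes EAT-2, was the gene most alike to Slamf9 of all genes with a symbol. After centering on the group means of log2 counts, Pearson's r was 0.97 over 14 tumors and 0.97 over the 13 without NAM-treated M/D tumor 1. It was at 463, 837, 669 and 344 counts in untreated M/D-driven tumors and at 55.2, 604, 399 and 772 in NAM-treated tumors, below all others in the same library as Slamf9. In AT3 tumors it was at 368, 181 and 694 counts untreated and at 365, 219 and 169 with NAM, again in the order of Slamf9 within the untreated and the NAM-treated group. The tumors share libraries and scaling, and such values are a description.

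**Figure D5:**
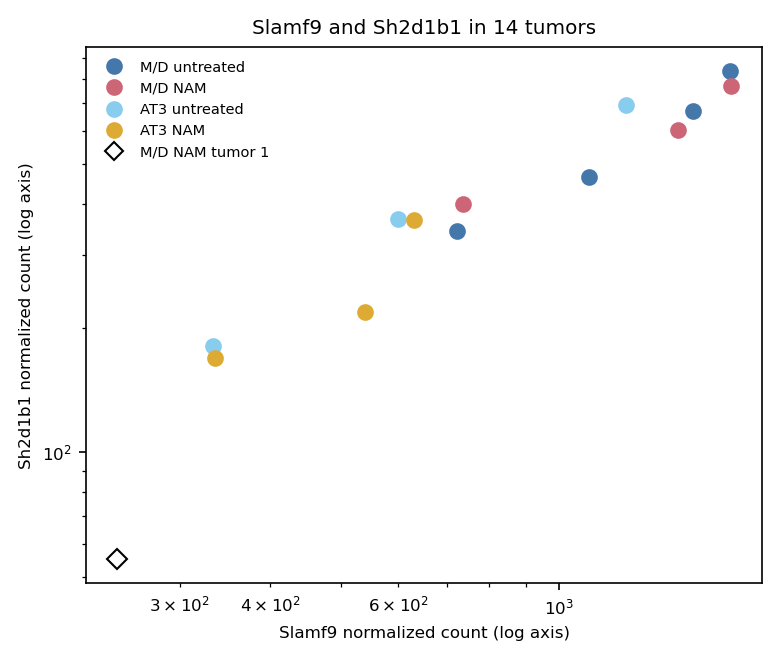
Normalized counts of Slamf9 and Sh2d1b1 (log axes) in the 14 tumors by group, with NAM-treated M/D tumor 1 as an open diamond. That tumor is lowest for both genes (246 and 55.2 counts), and the tumors with most Slamf9 have most Sh2d1b1.

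For the other members, the 2 genes most alike over 14 tumors were Arhgap27os3 and Pglyrp2 for Slamf1 (r = 0.92 and 0.90), Arhgdib and Ltb for Cd48 (0.98 and 0.97), Hcst and Pcbd2 for Cd84 (0.93 and 0.92), and P2ry13 and Il10ra for Cd244 (0.97 and 0.96). They were Ptpn6 and Sash3 for Ly9 (0.98 for both), A630001G21Rik and AI662270 for Slamf6 (0.98 for both), Lta and Cldn34c1 for Slamf7 (0.96 and 0.94), Cd3d and Fasl for Slamf8 (0.95 and 0.94), Ccrl2 after Sh2d1b1 for Slamf9 (0.94), and Zfp931 and Mks1 for Cd160 (0.97 and 0.93). Ltb, Il10ra and Lta share their row with a microRNA gene. Without NAM-treated M/D tumor 1 these 20 values ranged from 0.84 to 0.99.

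Among the members themselves, 37 of 45 pairs had r of at least 0.5 over the 13 tumors and none was below 0, with Cd48 and Cd84 highest (0.96). When NAM-treated M/D tumor 1 was included, 25 pairs had r of at least 0.5 and 9 were below 0. Slamf7 and Slamf9 went from 0.74 to -0.11, and Cd244 and Slamf9 from 0.86 to -0.29. The marker list closest to a member over the 13 tumors was that of T cells for 7 members, from Slamf8 (0.93) to Cd244 (0.68). The closest list was that of leukocytes for Ly9 (0.92), of NK cells for Cd160 (0.81) and of dendritic cells for Slamf1 (0.83). The next list was near for some members, such as NK cells for Slamf8 (0.90) and T cells for Cd160 (0.79). It was further off for others, such as macrophages for Cd48 (0.67, against 0.84 for T cells). Over all 14 tumors T cells were closest for 2 members, Slamf8 (0.94) and Slamf9 (0.75), and r with T cells was 0.01 for Cd244 and 0.03 for Slamf6. Leukocytes were then closest for 5 members, from Ly9 (0.97) to Slamf7 (0.78), precursor B cells and thymocytes for Slamf6 (0.86), plasma cells for Cd84 (0.57), and NK cells again for Cd160 (0.79). Plasma cells (0.85) and B cells (0.84) were next for Slamf6, and leukocytes (0.56) for Cd84. The closest list therefore does not assign a member to a cell type.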

How the data were processed

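Polyadenylated RNA of 14 tumors was sequenced. Per the study's methods, the authors mapped reads with STAR 2.4.0 on mm10, counted them on constitutive regions of FAST DB genes, and deposited these counts divided by DESeq2 size factors, a normalized signal per gene. Each tumor's values were whole multiples of 1 step (100% within 0.1), which gave back its reads (40936868 to 84178009). Differences with NAM were fitted within a model by limma 3.58.1 (R 4.3.3, with mean-variance trend) on log2(normalized count + 1), keeping genes whose mean reached 10 in a group, and untreated models on log2(TMM-scaled CPM + 0.5), keeping genes whose mean reached 0.2. A call required a 1.5-fold change with an unadjusted p no higher than 0.05, and adjusted p values (Benjamini-Hochberg) cover all genes tested. Such fold changes understate changes of low genes. edgeR 4.0.16 and DESeq2 1.42.0 were alternatives on recovered reads. The fits were tested on simulated data. The members and lists were chosen with earlier results of these data known. All members were named in both models, with Sh2d1a, Sh2d1b1, Cd2, Tnfrsf14, called pathway genes, and the 2 genes most alike to each member. Precision came from the spread between tumors.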

Additional observations from a re-analysis of the deposited data

Results flagged for a closer look

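In groups of 4 tumors, the gap between the most extreme tumor and its neighbor was compared with the range of log2(normalized count + 1). This was done for the 10 members and Ptprc, and the gap passed Dixon's 95% value in 3 of 22 groups. A single group passes by chance about 1 time in 20. The 22 groups share the same tumors and the members vary together, so their count cannot be compared with that rate. Slamf6 of NAM-treated M/D tumor 1 was set apart by 0.847 of the range, and is described with that library above. Slamf8 of untreated M/D tumor 1 (1099 against 516 to 565 normalized counts) was set apart by 0.881 of the range. Cd160 of untreated M/D tumor 4 (6.44 against 36.0 to 48.8 normalized counts) was set apart by 0.844 of the range. No cause was tested.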

How the results depend on the processing

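With NAM in M/D-driven tumors, 0 members were called under the limma settings other than the following. All 14 tumors in 1 fit called 1 (Cd244), where 993 of 22710 genes passed as higher and 1232 as lower. Leaving out 1 tumor called 0 to 2. Slamf7 was called without NAM-treated tumor 2, where 1201 of 21837 genes were higher and 1511 lower. Cd244 and Cd48 were called without NAM-treated tumor 3, where 637 of 21773 genes were higher and 592 lower. edgeR called 3 (7.54% of all genes passed) and DESeq2 called 4 (9.64%), and for the pathway genes DESeq2 called 2 (Cd2 and Inpp5d). Scaled to Ptprc, Cd84 turned to -0.29, and scaled to 3 leukocyte genes to -0.32. These scalings moved the median log2 difference of all genes from 0.01 to -0.48 and -0.51. In experiment 1 alone, scaling to Ptprc turned Cd84 (-0.34), Ly9 (-0.10), Slamf1 (-0.41) and Slamf6 (-0.26), and edgeR turned Slamf8 (0.20) and Slamf9 (0.06). With 1 tumor left out, Slamf1 ranged from -0.02 to 1.31, Slamf8 from -0.51 to 0.14 and Slamf9 from -0.90 to 0.03.

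In AT3 tumors, scaling to Ptprc called 3 members lower (Cd48, Slamf7, Slamf9), where 7305 of 19281 genes were lower. Scaling to 3 leukocyte genes called 2 lower (Cd48, Slamf9), where 6889 of 19281 genes were lower. The scaling genes were themselves higher with NAM, with log2 differences of 0.71 for Ptprc, 1.02 for Laptm5 and 0.12 for Coro1a. The scalings moved the median log2 difference of all genes from -0.05 to -0.76 (Ptprc) and -0.67 (3 leukocyte genes). The scalings turned Cd244 (-0.52 and -0.43), Cd84 (-0.63 and -0.54), Ly9 (-0.32 and -0.23) and Slamf1 (-0.11 and -0.02). Removing the length and GC trend called 1 (Slamf8), where 1513 of 15579 genes were higher and 1074 lower, and turned Cd48 (0.56) and Slamf9 (0.19). edgeR (0.20) and DESeq2 (0.21) turned Slamf6. Of the 3 pathway genes, both scalings and the fit of all 14 tumors left a count of 1, and leaving out 1 tumor gave 1 to 5. With 1 tumor left out, 0 to 2 members were called (Cd48 and Cd160 without untreated tumor 2), and the ranges were -0.16 to 1.14 for Slamf1, -0.75 to 0.02 for Cd48, -0.35 to 0.30 for Cd84, -0.11 to 0.40 for Cd244, -0.78 to 0.37 for Slamf6, -0.62 to 0.11 for Slamf7, -0.82 to 0.12 for Slamf9 and -1.86 to 0.11 for Cd160.

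For the difference in NAM effect, scaling to 3 leukocyte genes called 1 (Cd48), where 988 of 22710 genes passed as higher and 458 as lower. DESeq2 called 3, where 18.6% of genes passed, and leaving out 1 tumor called 0 to 2. Cd48 and Cd160 were called without untreated AT3 tumor 2, where 2242 of 22454 genes were higher and 2202 lower. Cd84 turned to -0.09 with the trend removed, and Slamf9 to 0.29 (DESeq2), 0.04 (Ptprc) and 0.22 (edgeR). With 1 tumor left out, Slamf1 ranged from -0.62 to 0.92, Cd84 from -0.10 to 0.55, Ly9 from -0.09 to 0.86 and Slamf9 from -0.66 to 0.40.

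Between untreated models, 7 members were called higher in M/D-driven tumors on CPM of total reads, the deposited values, all 14 tumors or the trend removed. With 1 tumor left out, 3 to 8 were called higher (8 without AT3 tumor 3). In the other direction, scaling to Ptprc called 8 lower and 0 higher. Scaling to 3 leukocyte genes called 8 lower and 1 higher (Slamf8). Scaling to Ptprc and to 3 leukocyte genes turned Cd244 (-1.58 and -1.32), Cd48 (-1.68 and -1.42), Cd84 (-1.57 and -1.31), Ly9 (-1.05 and -0.79), Slamf1 (-2.05 and -1.79), Slamf6 (-0.63 and -0.37), Slamf7 (-1.53 and -1.27) and Slamf9 (-1.70 and -1.44), and called 8 and 9 pathway genes lower and none higher. Cd160 turned to 0.24 with the trend removed, 0.37 on deposited values, 0.07 with the total and 0.51 with all 14 tumors, and ranged from -0.56 to 0.25 with 1 tumor left out. The cause of these changes was not tested. Scalings to 3 leukocyte genes, the fits of experiment 1 alone and the trend removal between models were chosen after seeing the data.

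The labels do not state whether replicate numbers mark pairs. The deviations of same-numbered tumors correlated with r of -0.44 to 0.11 (M/D-driven) and -0.16 to 0.26 (AT3). Those of differently numbered tumors correlated with r of -0.22 to 0.39 and -0.32 to 0.28. With so few tumors, these values cannot decide whether tumors were paired. Fitted with a replicate block, 0 members were called in either model. With the trend removed too, 1 (Slamf8) was called in AT3 tumors, where 1595 of 15579 genes were higher and 1152 lower. Cd48 was then at 0.56 and Slamf9 at 0.19. The block took all genes at an adjusted p of at most 0.05 from 1 to 1296 in AT3 tumors and from 1 to 0 in M/D-driven tumors. Depth limits Slamf1 and Cd160, with as few as 2 and 3 reads in a tumor.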
